A study of Mus musculus with 7 samples.

Results

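The 7 SoxB and SoxC genes of neural progenitors were examined across oligodendroglia with and without overexpression of Sox9. They are the rows of the count tables named Sox1, Sox2, Sox3 and Sox21 (SoxB) and Sox4, Sox11 and Sox12 (SoxC), 7 of 49315 genes listed, and all 7 were among the 16616 genes with enough reads to test. They were chosen by name, with earlier results of these data known. Bulk RNA sequencing was done on oligodendroglia from mouse brain in 2 groups, Sox9-tg (4 libraries, overexpressing Sox9) and control (3 libraries, genotype Sox9-wt). By the series' title the cells were early postnatal NG2 glia, the dividing precursors of oligodendrocytes, and the question was which genes Sox9 acts on in them. The labels do not state the promoter that drives the transgene, the strain, the sex, the age in days or how the cells were isolated.

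Sox proteins bind DNA through an HMG box and are grouped by its sequence. The SoxB1 proteins Sox1, Sox2 and Sox3 keep neural progenitors in a dividing, undifferentiated state, and Sox21, a SoxB2 protein, was found in chick to counteract them. The SoxC proteins Sox4, Sox11 and Sox12 act later, in cells that leave the cycle and differentiate, where Sox4 and Sox11 activate neuronal genes. Glial precursors also use both groups: in mouse, Sox2 and Sox3 contribute to the oligodendrocyte lineage. Sox9, the overexpressed factor, belongs to the SoxE group and directs the switch of progenitors to gliogenesis.

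Libraries held 15768472 to 20815459 gene counts in the Sox9-tg group and 17275678 to 30507326 in the control group. Each member had at least 745 counts in every library. Sox9 itself had 2206.7, 2740.6, 3597.3 and 3115.3 CPM (counts relative to the TMM-scaled library total) in Sox9-tg libraries 1 to 4, against 238.9, 352.8 and 293.0 CPM in control libraries 1 to 3, a log2 fold change of 3.30 (SE 0.24, adjusted p = 0.000181), in the direction of the labels. Transgenic and endogenous Sox9 transcripts cannot be told apart in counts per gene. The NG2 glia markers Pdgfra and Cspg4 were present in all 7 libraries, and so were immature neuron markers: their 20 genes summed to 5032.9 to 8908 CPM in Sox9-tg and 7137.6 to 12274.7 CPM in control libraries. Of these sums, Tubb2b alone held 2576.1 to 3018.6 CPM in Sox9-tg and 1851.2 to 2835.8 CPM in control libraries. Each log2 fold change gives Sox9-tg over control, and adjusted p-values are from edgeR's quasi-likelihood test over all 16616 genes, with a threshold of 0.05. The error given with ± is the SD over 4 Sox9-tg or 3 control libraries.

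Each member has a single exon in the gene models (GRCm38). Sox11 lies on chromosome 12, 27334264 to 27342574, Sox4 on chromosome 13, 28948919 to 28953713, and Sox12 on chromosome 2, 152393611 to 152398063, all on the minus strand. Of the SoxB genes, Sox1 lies on chromosome 8, 12395295 to 12400126, and Sox2 on chromosome 3, 34650405 to 34652461, both on the plus strand, and Sox3 on chromosome X, 60891366 to 60893430, and Sox21 on chromosome 14, 118233232 to 118237030, both on the minus strand. The bases just upstream of these SoxC genes are shown because 1 of the 3 passed the test of change and the other two did not. They are from RefSeq, GRCm38.p6, minus strand, written 5′ to 3′ with the CCAAT box (CCAAT, or ATTGG on the other strand) and the octamer ATGCAAAT, a POU factor motif, in capitals. Each stretch ends before the earlier of the RefSeq and GENCODE starts.
Sox11 promoter, chr12:27342719-27342968: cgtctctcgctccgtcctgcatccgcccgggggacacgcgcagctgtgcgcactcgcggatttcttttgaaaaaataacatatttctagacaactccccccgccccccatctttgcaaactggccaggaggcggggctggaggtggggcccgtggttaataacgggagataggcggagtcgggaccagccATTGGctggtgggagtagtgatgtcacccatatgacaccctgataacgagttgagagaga
Sox4 promoter, chr13:28953714-28953949: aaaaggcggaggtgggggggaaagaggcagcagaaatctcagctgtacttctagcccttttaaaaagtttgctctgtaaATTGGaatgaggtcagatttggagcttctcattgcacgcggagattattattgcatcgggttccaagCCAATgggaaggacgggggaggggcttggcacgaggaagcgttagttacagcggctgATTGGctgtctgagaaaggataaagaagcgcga
Sox12 promoter, chr2:152398064-152398296: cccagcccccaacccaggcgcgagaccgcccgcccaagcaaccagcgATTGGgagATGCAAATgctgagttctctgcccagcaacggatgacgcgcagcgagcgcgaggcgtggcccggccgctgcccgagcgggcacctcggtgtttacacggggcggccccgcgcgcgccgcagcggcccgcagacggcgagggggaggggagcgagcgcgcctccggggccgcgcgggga

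In the 250 bases before the RefSeq start, 6 of the 7 members had an entry, and 4 motifs were searched on both strands. A CCAAT box was found for Sox11, Sox4, Sox12, Sox1 and Sox2, and in 33.8% of 32851 mouse promoters of that length. The octamer was found for Sox12 only, against 1.6% of all promoters. Of the Sox-type cores, ACAAAG (or CTTTGT) was found for Sox2 only, against 16.5% of all promoters, and ACAAT (or ATTGT) for no member, against 27.7%. A match is a string of letters and not evidence of binding.

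Of the 7 members, 1 fell and 0 rose in edgeR's test, and DESeq2 also called 1 lower and 0 higher. Sox11 fell to 36.5% of its control level, and Sox1 was lower in every Sox9-tg library than in any control library without passing the adjusted threshold. Across all tested genes, 13.5% were called, 7.69% higher and 5.86% lower. At an unadjusted p under 0.05 there were 2 members, Sox11 and Sox1, both lower, and 4482 genes in all. The members' median log2 fold change was 0.10, against -0.01 for all tested genes. Groups without overlap were seen for 2 of the 7 members, against 24.5% of tested genes, a share near that of the members. Both were lower in Sox9-tg; 11.5% of tested genes had no overlap and were lower, and 13.1% had no overlap and were higher. The plot of CPM by library shows each value.

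**Figure D1:**
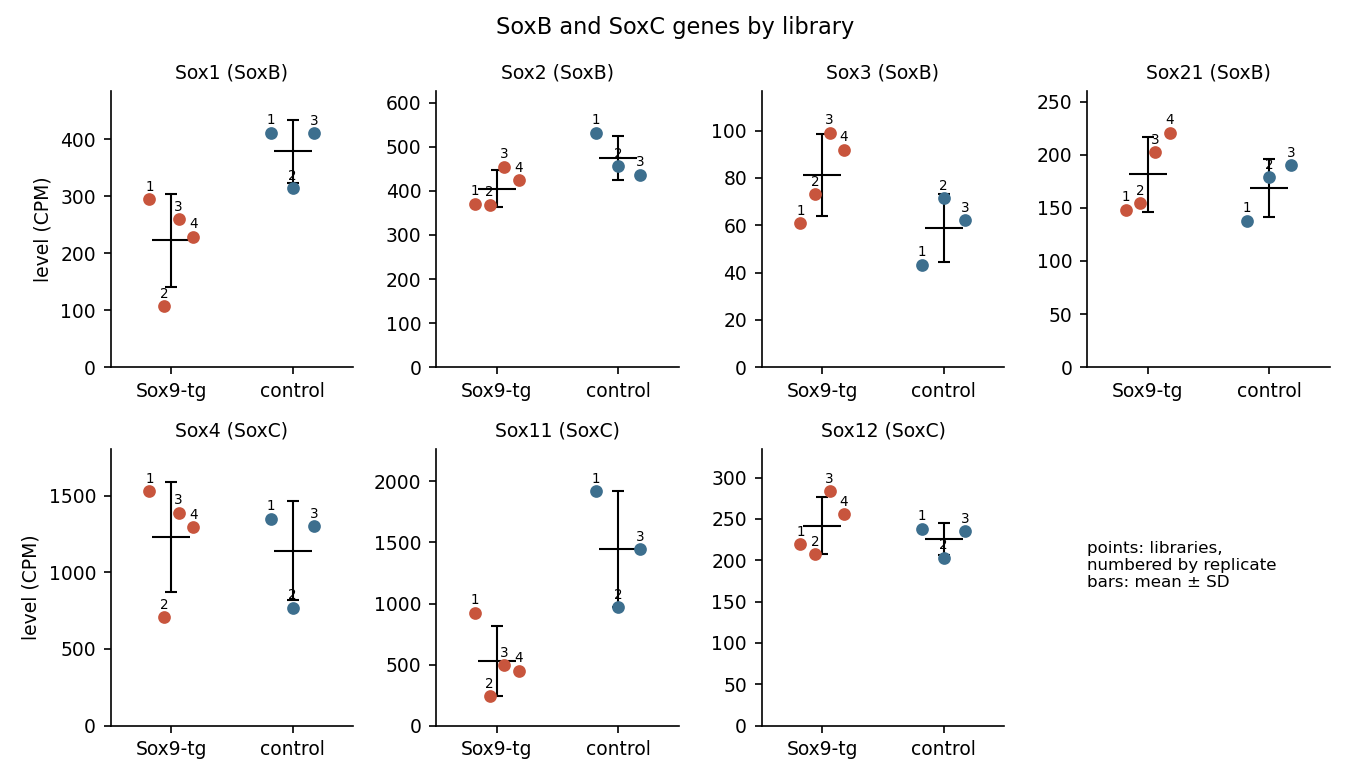
Level of each member in CPM (vertical axis, starting at 0) in the 4 Sox9-tg libraries and the 3 control libraries, with replicate numbers beside the points and mean ± SD as bars. Sox11 and Sox1 are the members whose groups do not overlap, and Sox4 is low in both libraries numbered 2.

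Sox11, a SoxC factor of newly formed neurons, had 924.0, 242.6, 496.8 and 449.2 CPM in Sox9-tg libraries 1 to 4, against 1919.4, 971.1 and 1446.5 CPM in control libraries 1 to 3. The groups did not overlap, although the highest Sox9-tg library (replicate 1) came close to the lowest control library (replicate 2). Sox11 averaged 528.1 ± 286.0 CPM in Sox9-tg and 1445.7 ± 474.1 CPM in control libraries, a log2 fold change of -1.45 (SE 0.41, 95% interval -2.38 to -0.53, adjusted p = 0.047), or 36.5% of the control level. It was the most variable member among Sox9-tg libraries, with a coefficient of variation of 54.2%, against 32.8% among control libraries. In these bulk samples, fewer cells of a type and less RNA per cell cannot be told apart.

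The call of Sox11 rested close to the threshold. Leaving out a library lost it in 5 of 7 cases: without Sox9-tg replicate 2 (log2 fold change -1.20, adjusted p = 0.0537), Sox9-tg replicate 3 (-1.41, 0.123), Sox9-tg replicate 4 (-1.37, 0.129), control replicate 1 (-1.18, 0.164) or control replicate 3 (-1.45, 0.133). It held without Sox9-tg replicate 1 (-1.87, 0.00872) or control replicate 2 (-1.67, 0.0402). The estimate was between -1.87 and -1.18 under every setting tried. With all libraries, DESeq2 gave an adjusted p of 0.00193, and the call was lost with RLE size factors (adjusted p = 0.0509) and with a covariate for the ratio of Xist to Y-linked genes (0.0866). The plot of Sox11 under each setting gives the estimates side by side.

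**Figure D2:**
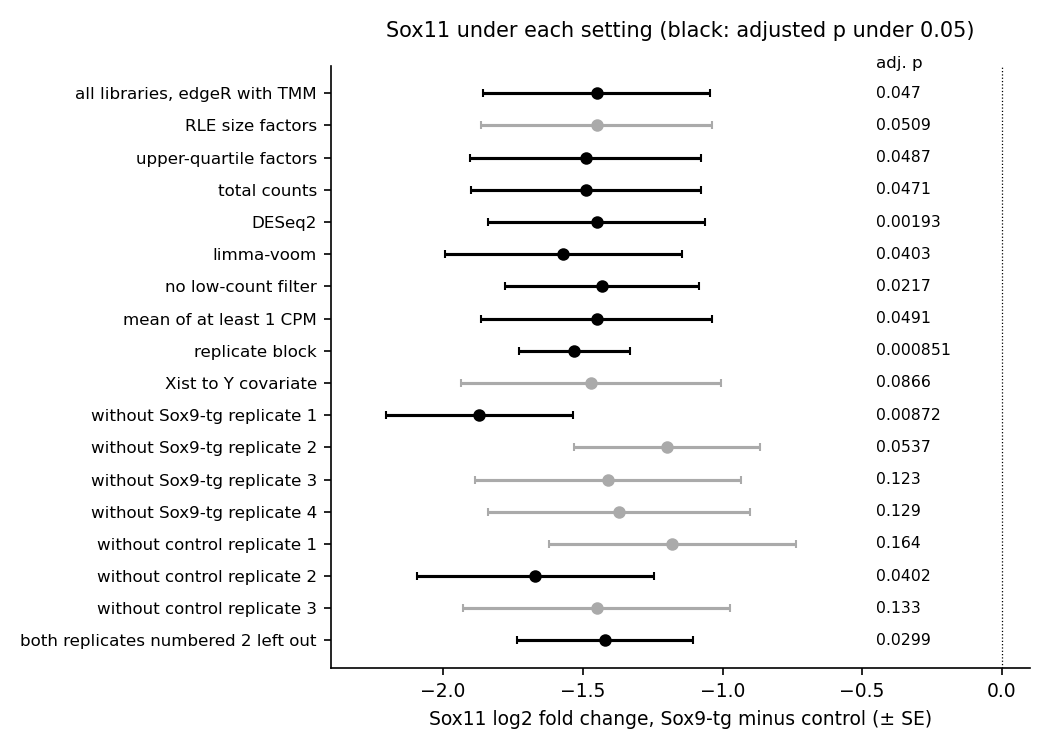
Log2 fold change of Sox11, Sox9-tg minus control (horizontal axis, bars ± SE), with all libraries and under each alternative setting, with the adjusted p printed on the right. All estimates lie between -1.87 and -1.18, and black marks those with an adjusted p under 0.05.

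Sox4, the SoxC factor most alike to Sox11 in reported function, had 1528.6, 707.9, 1389.0 and 1295.4 CPM in Sox9-tg libraries, against 1350.6, 768.6 and 1299.7 CPM in control libraries. The groups overlapped, with library 2 lowest in each. Sox4 averaged 1230.2 ± 361.1 CPM in Sox9-tg and 1139.6 ± 322.3 CPM in control libraries (log2 fold change 0.11, SE 0.29, adjusted p = 0.855), and the 95% interval ran from -0.55 to 0.77. The antisense gene Gm26735, which shares 2616 exon bases with Sox4, had 0 or 1 counts per library. Sox12, the SoxC factor that is widely expressed, had 219.8, 207.7, 283.5 and 255.6 CPM in Sox9-tg libraries, against 238.1, 203.2 and 234.8 CPM in control libraries. Its log2 fold change was 0.10 (SE 0.14, adjusted p = 0.711), with a narrower interval of -0.22 to 0.42, and the groups overlapped.

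Ratios between SoxC genes were taken within each library, where sequencing depth cancels. The log2 ratio of Sox4 to Sox11 counts averaged 1.32 ± 0.40 in Sox9-tg libraries (0.73 to 1.54) and -0.33 ± 0.18 in control libraries (-0.51 to -0.15), a difference of 1.65. Sox4 counts thus exceeded Sox11 counts in all 4 Sox9-tg libraries, and Sox11 counts exceeded Sox4 counts in all 3 control libraries. These counts are not corrected for exon length, which is 8311 bases for Sox11 and 4795 bases for Sox4. Per base of exon, Sox4 was above Sox11 in every library of both groups, so only the shift of the ratio between groups can be read. The ratio of Sox11 to Sox12 also did not overlap between groups, with a mean log2 ratio of 0.98 ± 0.78 in Sox9-tg and 2.63 ± 0.38 in control libraries. Of the 21 pairs of members, 7 did not overlap; each has an exact permutation p of 0.0571, the smallest that 4 against 3 libraries allow, and an adjusted p of 0.171 over the pairs, so no pair passed. The ratio of Sox4 to Sox12 differed by 0.00 between groups.

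**Figure D3:**
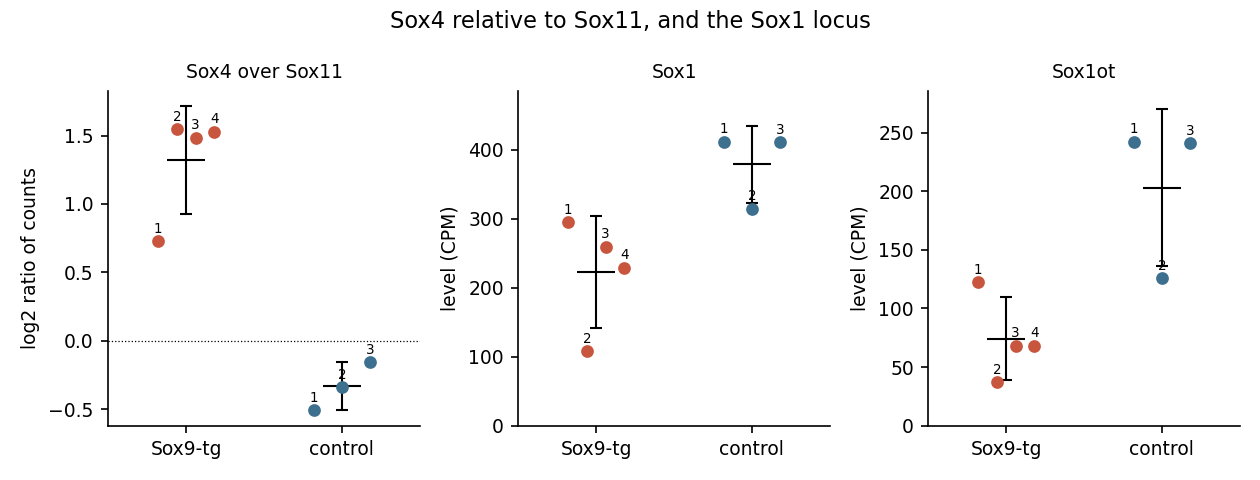
Left, log2 ratio of Sox4 to Sox11 counts per library; middle and right, CPM of Sox1 and of the overlapping transcript Sox1ot per library, with Sox9-tg at the left of each panel, mean ± SD as bars and replicate numbers beside points. The ratio is above 0 in all 4 Sox9-tg libraries and below 0 in all 3 control libraries. Counts are not corrected for exon length, so 0 does not mark equal transcript levels.

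Among the SoxB genes, Sox1, a marker and maintenance factor of neural progenitors, had 295.3, 107.6, 259.5 and 229.1 CPM in Sox9-tg libraries, against 411.8, 314.5 and 410.9 CPM in control libraries. The groups did not overlap, and Sox9-tg replicate 2 was the lowest. Sox1 averaged 222.9 ± 81.5 CPM in Sox9-tg and 379.1 ± 55.9 CPM in control libraries, a log2 fold change of -0.77 (SE 0.30, 95% interval -1.44 to -0.09). Its adjusted p was 0.136, over the threshold, and leaving out single libraries gave adjusted p-values from 0.0716 to 0.34. It passed with both libraries numbered 2 left out (-0.64, adjusted p = 0.032), an alternative chosen after seeing the data.

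Sox1ot, a non-coding gene that spans the Sox1 locus on chromosome 8 on the same strand but shares no exon bases with it, had 122.4, 37.3, 68.3 and 68.2 CPM in Sox9-tg libraries, against 242.3, 125.9 and 241.1 CPM in control libraries. It fell, with a log2 fold change of -1.46 (SE 0.37, adjusted p = 0.0329), and the groups did not overlap. That call was lost without Sox9-tg replicate 3 (adjusted p = 0.0935), Sox9-tg replicate 4 (0.0896), control replicate 1 (0.112) or control replicate 3 (0.128), and with the Xist to Y covariate (0.0765). Unspliced reads of Sox1ot could fall in Sox1, which has a single exon. The labels do not state whether counting used strand, and on the same strand that would not separate the genes.

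Sox2, the SoxB1 factor shared by neural stem cells and oligodendrocyte precursors, had 370.8, 368.9, 454.7 and 424.3 CPM in Sox9-tg libraries, against 531.9, 456.5 and 436.4 CPM in control libraries. The groups overlapped, and the log2 fold change was -0.23 (SE 0.14, 95% interval -0.54 to 0.08, adjusted p = 0.331). Sox2ot, the long non-coding gene in whose intron Sox2 lies, had a log2 fold change of -0.02 (SE 0.27, adjusted p = 0.981), and its sign turned under 6 of 17 settings.

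Sox3, the X-linked SoxB1 gene, had 60.9, 73.2, 99.1 and 91.9 CPM in Sox9-tg libraries, against 43.3, 71.4 and 62.0 CPM in control libraries. It had the highest log2 fold change of the members, 0.46 (SE 0.21, 95% interval -0.02 to 0.95, adjusted p = 0.207), and the groups overlapped. Sox21, the SoxB2 gene, had 148.4, 154.4, 202.1 and 220.7 CPM in Sox9-tg libraries, against 137.9, 178.9 and 189.9 CPM in control libraries. Its log2 fold change was 0.10 (SE 0.18, 95% interval -0.31 to 0.51, adjusted p = 0.775). The antisense gene Gm4675 shares 713 exon bases with Sox21, so reads of the 2 may not be separable; it had a log2 fold change of 0.42 (SE 0.24, adjusted p = 0.315).

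**Figure D4:**
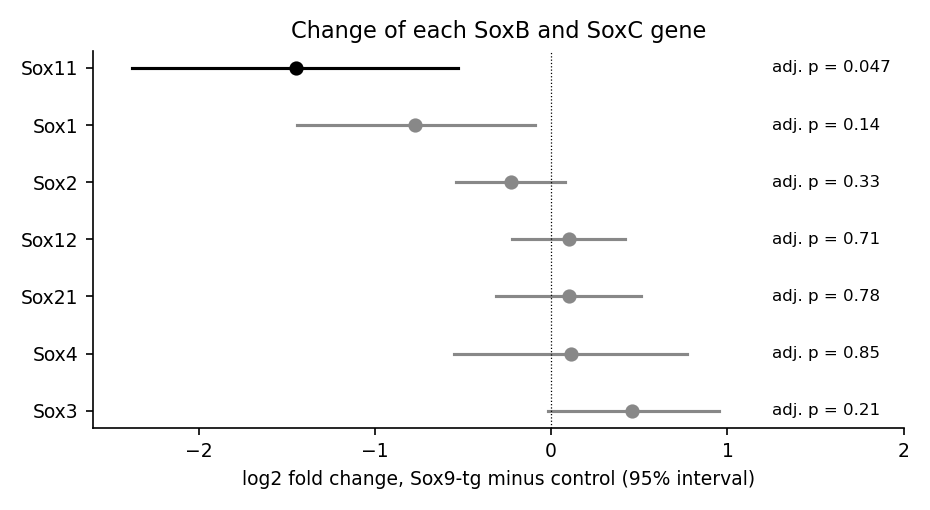
Log2 fold change of each member, Sox9-tg minus control (horizontal axis), with its 95% interval as a bar and the adjusted p on the right. Sox11 is drawn in black as the member past the threshold, and the intervals of Sox11 and Sox1 lie below 0.

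Per transcript length, as FPKM (CPM divided by the exon length in kilobases), Sox4 and Sox2 were the most abundant members in both groups. In Sox9-tg libraries the order of the mean levels was Sox4 (256.6 ± 75.3 FPKM), Sox2 (196.7 ± 20.4), Sox11 (63.5 ± 34.4), Sox12 (54.3 ± 7.74), Sox21 (47.7 ± 9.36), Sox1 (46.1 ± 16.9) and Sox3 (39.3 ± 8.44). In control libraries it was Sox4 (237.7 ± 67.2 FPKM), Sox2 (230.9 ± 24.5), Sox11 (173.9 ± 57.0), Sox1 (78.5 ± 11.6), Sox12 (50.6 ± 4.33), Sox21 (44.5 ± 7.21) and Sox3 (28.5 ± 6.93). Among neighbors in the Sox9-tg order, Sox2 and Sox11 had ranges that did not overlap, and all other neighbors overlapped. Sox11 was above Sox12 in only 1 of the 4 Sox9-tg libraries, replicate 1. In the control order the neighbors with separate ranges were Sox11 and Sox1, Sox1 and Sox12, and Sox21 and Sox3.

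The members made up a smaller part of all Sox transcripts in Sox9-tg libraries, 32.4% to 49.3% of the summed FPKM of 20 Sox genes, against 73.3% to 83.4% in control libraries. Their own summed level overlapped, at 501.2 to 789.3 FPKM in Sox9-tg and 691.4 to 967.1 FPKM in control libraries. Sox9 took 33.3% to 42.8% of the sum in Sox9-tg and 4.98% to 9.04% in control libraries, and it was the highest Sox gene in all 4 Sox9-tg libraries. Because the sum includes the overexpressed Sox9, part of the members' smaller share is set by the overexpression itself. Sox10 was also higher, at 248.6 ± 73.4 FPKM in Sox9-tg and 46.2 ± 10.9 FPKM in control libraries. Sox8 was at 79.0 ± 14.7 FPKM in Sox9-tg and 79.1 ± 4.1 FPKM in control libraries. Within the members, the share of Sox11 was 5.82% to 14.1% in Sox9-tg and 16.9% to 23.9% in control libraries. Sox14, the other SoxB2 gene, was low throughout, with 50, 50, 72 and 101 counts in Sox9-tg libraries against 7, 12 and 1 in control libraries. It rose (adjusted p = 0.00823), with 3.67 ± 1.29 CPM in Sox9-tg and 0.276 ± 0.212 CPM in control libraries.

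**Figure D5:**
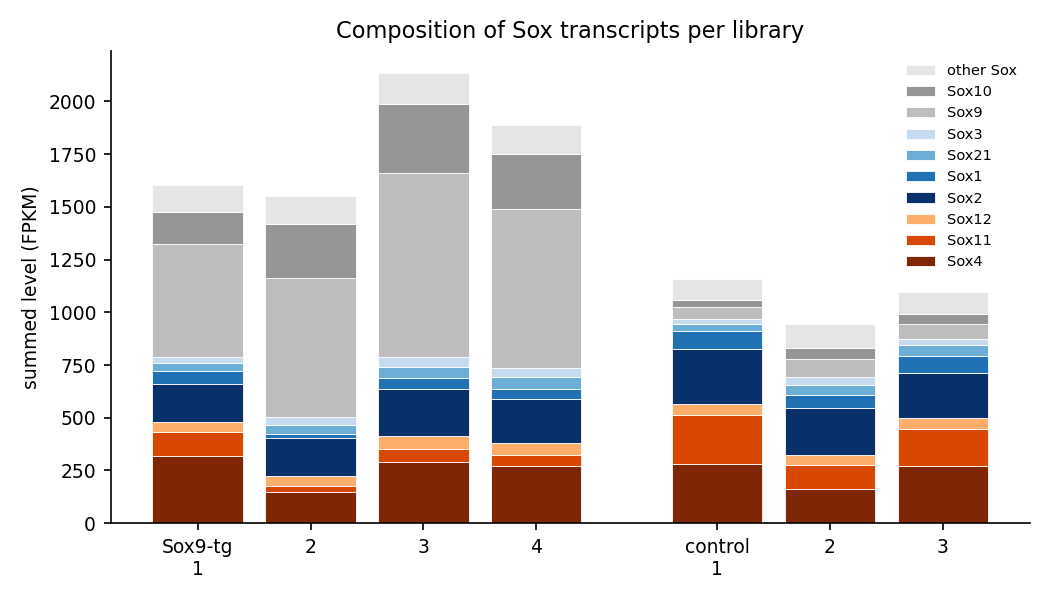
Summed FPKM of Sox genes in each library (vertical axis, starting at 0), stacked by gene, with Sox9-tg libraries at the left and control libraries at the right. Orange shades are SoxC, blue shades SoxB and grey shades the other Sox genes; the Sox9 block is the largest in the 4 Sox9-tg libraries.

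Of 8 partner factors of SoxB1 proteins, 3 fell (37.5%, against 5.86% of all tested genes), with a median log2 fold change of -0.70. This and the later lists were chosen with earlier results of these data known, so the share is not a test of the list. Pax6, which acts with Sox2 at shared enhancers, had 51.7 to 70.3 CPM in Sox9-tg and 122.8 to 146.7 CPM in control libraries (log2 fold change -1.07, SE 0.13, adjusted p = 0.00159). Pou3f1, a POU factor, had 7.83 to 13.6 CPM in Sox9-tg and 30.7 to 53.9 CPM in control libraries (-1.81, SE 0.24, adjusted p = 0.00218). Pou3f4 fell too (-1.78, SE 0.40, adjusted p = 0.0204), a call lost without Sox9-tg replicate 3 (adjusted p = 0.0605), Sox9-tg replicate 4 (0.057), control replicate 1 (0.0841) or control replicate 3 (0.0532). Pou3f2, which binds with Sox2 at the Nes enhancer, had 56.8 to 166.1 CPM in Sox9-tg and 174.2 to 258.6 CPM in control libraries without passing (-0.91, adjusted p = 0.0941), but passed with DESeq2 (adjusted p = 0.0306) and without Sox9-tg replicate 1 (0.0211). Chd7, a chromatin remodeler that binds Sox2, had a log2 fold change of 0.39 (adjusted p = 0.226).

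Of 18 progenitor genes linked to SoxB1, 5 fell (27.8%, against 5.86% of all tested genes), with a median of -0.45. Egfr, the growth factor receptor of dividing progenitors, had 33.0 to 63.1 CPM in Sox9-tg and 276.4 to 305.3 CPM in control libraries (log2 fold change -2.52, SE 0.20, adjusted p = 0.000236). The Hedgehog mediators Gli2 (-1.87, SE 0.11, adjusted p = 0.000118) and Gli3 (-1.33, SE 0.11, adjusted p = 0.000287) fell with little spread among libraries. Nes, the intermediate filament of neural progenitors and a Sox2 target, fell by 1.36 on the log2 scale (SE 0.18, adjusted p = 0.00198), and Prom1 by 0.86 (SE 0.16, adjusted p = 0.00841). Notch1 had 529.3 to 913.7 CPM in Sox9-tg and 374.1 to 432.8 CPM in control libraries without passing (0.69, adjusted p = 0.0686), but passed with DESeq2 (adjusted p = 0.0124) and without Sox9-tg replicate 1 (0.46, adjusted p = 0.0307).

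Of 9 genes linked to SoxC, 3 fell (33.3%, against 5.86% of all tested genes), with a median of -0.78. Tead2, a SoxC target of the Hippo pathway in mouse, had 30.7 to 43.9 CPM in Sox9-tg and 100.3 to 117.9 CPM in control libraries (log2 fold change -1.53, SE 0.14, adjusted p = 0.000357). The neurogenic factor Neurod1 (-2.42, SE 0.30, adjusted p = 0.00142) and the microtubule regulator Stmn2 (-1.08, SE 0.18, adjusted p = 0.00521) fell. Tubb3, the neuronal tubulin known as a SoxC target in chick, had 245.4 to 768.2 CPM in Sox9-tg and 816.4 to 1634.7 CPM in control libraries and missed the threshold (-1.13, SE 0.36, adjusted p = 0.0781). It passed with DESeq2 (adjusted p = 0.0116), without Sox9-tg replicate 1 (0.0406) and with both libraries numbered 2 left out (0.0253), the last an alternative chosen after seeing the data. Dcx overlapped between groups (-0.44, SE 0.38, adjusted p = 0.509).

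Markers of cell types moved alongside these genes, and the lists share members: Tubb3, Dcx and Stmn2 are also immature neuron markers, and Neurod1 is also a proneural factor. For comparison with the counts below, 5.86% of all tested genes fell and 7.69% rose. Of 20 immature neuron markers, 4 fell (median -0.77), with Rbfox3 at -1.47 (adjusted p = 0.000973), Stmn2 as above, Syt1 at -0.75 (adjusted p = 0.00883) and Gad2 at -1.99 (adjusted p = 0.0122). The call of Gad2 was lost without control replicate 3 (adjusted p = 0.0544). Of 9 proneural factors tested, 6 fell (median -2.26), led by Eomes, a factor of intermediate neuronal progenitors, at -2.89 (SE 0.31, adjusted p = 0.000769). Of 16 cell cycle genes, 15 fell, with sums of 734.4 to 1312.5 CPM in Sox9-tg and 1913.7 to 2813.5 CPM in control libraries. Of 12 NG2 glia markers, 11 rose, with sums of 10509.4 to 14509.2 CPM in Sox9-tg and 4297.5 to 5386.8 CPM in control libraries.

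Of 9 oligodendrocyte markers tested, 8 rose (88.9%, against 7.69% of all tested genes). The list summed to 1244.2 to 6751 CPM in Sox9-tg and 190.6 to 363 CPM in control libraries. Of 12 radial glia and astrocyte markers, 6 fell (50%, against 5.86% of all tested genes). Their sums were 2917.1 to 4405.5 CPM in Sox9-tg and 3879 to 6798.2 CPM in control libraries. Microglia and endothelial markers summed to 44.2 to 239.1 CPM in Sox9-tg and 76.4 to 637.3 CPM in control libraries, and ependymal markers to 12.2 to 64.7 CPM in Sox9-tg and 14.1 to 111 CPM in control libraries. In both of these lists the library numbered 2 was highest in its group. The summed level of immature neuron markers, and the levels of Sox11, Sox1 and Sox4, were highest in replicate 1 and lowest in replicate 2 among Sox9-tg libraries, although not every single marker followed that order. The order was not particular to neuron markers: the sums of cell cycle genes and of proneural factors had it too. The sums of NG2 glia and oligodendrocyte markers were instead lowest in Sox9-tg replicate 1 and highest in Sox9-tg replicate 2. The part of these cell type differences in the levels of Sox11 and Sox1 was not tested.

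Over the 7 libraries, log2 CPM of Sox1 and Sox11 had a Pearson r of 0.941, Sox4 and Sox11 of 0.446, and Sox3 and Sox21 of 0.813. The libraries form 2 groups and share their composition, so these values describe likeness only. Among 11195 genes with a mean of at least 5 CPM, those most like Sox11 were Zic1 (r = 0.998), Gse1 (0.996) and Lin9 (0.995), and those most like Sox1 included Samd14 (0.992) and Nos1ap (0.991). Gse1 fell (log2 fold change -1.18, adjusted p = 0.0418), a call lost without Sox9-tg replicate 3 (adjusted p = 0.104), Sox9-tg replicate 4 (0.111), control replicate 1 (0.151) or control replicate 3 (0.138), and with the Xist to Y covariate (0.0842). Zic1 was just over the threshold (-0.90, adjusted p = 0.0517) and passed in 8 of 17 alternatives, among them DESeq2 (adjusted p = 0.00961), limma-voom (0.0456), total counts (0.0484) and the fit without Sox9-tg replicate 1 (0.00967). The genes most like the other members were Tmod3, Kpnb1 and Akt1 for Sox2 (r of 0.974 to 0.965), Gm2a, Zcchc24 and Dnajc25 for Sox3 (0.984 to 0.977), Mocs3, Prr3 and Npdc1 for Sox21 (0.984 to 0.972), Nom1, Syt6 and Svop for Sox4 (0.990 to 0.986), and Zfp768, Mto1 and Ube2q1 for Sox12 (0.989 to 0.978).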

How the data were processed

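Bulk RNA sequencing libraries of mouse oligodendroglia, 4 Sox9-tg and 3 control, were grouped by genotype and numbered by title. The titles call the libraries biological replicates, but no label names separate animals, litters or cultures. The p-values therefore reflect only how far these samples varied, in part perhaps technically. The authors deposited whole-number read counts per gene, not normalized. The build GRCm38 and the tools STAR 2.5.2b, Trimmomatic 0.36, Subread 1.5.2 (featureCounts), DESeq and DESeq2 are named per the submitters' processing notes, without settings, strand or annotation release. Gene models were from GENCODE M21, which held 48970 of 49315 gene IDs; FPKM used their union exon length.

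Genes were filtered with filterByExpr (minimum count 10, minimum total 15), which left 16616 genes; removed genes held 0.0798% to 0.364% of counts. Libraries were scaled by TMM and tested with edgeR 4.0.16 (R 4.3.3), quasi-likelihood F test, two-sided, group as the only term, Benjamini-Hochberg adjustment over all genes. A total of 3 counts corresponded to 0.097 to 0.193 CPM. Ratios of members were compared by exact permutation, two-sided. Alternatives were other scalings, DESeq2 1.42.0, limma 3.58.1 with voom, other filters, a replicate block, a covariate for Xist over Y-linked genes (log2), and leaving out each library. The test was checked on simulated counts.

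The members and lists were chosen with earlier results of these data known. Named genes were the members, Sox9, Sox14, genes overlapping a member, the 2 called genes of smallest p per list and direction, and the 3 genes most like each member. List genes named beyond that rule (Pou3f2, Pou3f4, Chd7, Gli3, Nes, Prom1, Notch1, Tubb3, Dcx, Syt1, Gad2 and Pdgfra) were chosen after their values were seen. A gene that the rule gave is not reported here.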

Additional observations from a re-analysis of the deposited data

Results flagged for a closer look

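Values in the 4 Sox9-tg libraries were checked for a single library far from the rest, for the 7 members and the other named genes, 52 genes in all. None of the members was flagged. Nom1, named because its levels were most like those of Sox4, had 30.0 CPM in Sox9-tg replicate 2, apart from 37.5 to 38.5 CPM in the other Sox9-tg libraries. The gap made up 0.876 of the range of the group. Control libraries of Nom1 had 31.0 to 37.0 CPM, with replicate 2 lowest there too. Chance flags about 1 in 20 such groups.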

How the results depend on the processing

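The direction of Sox11 was lower in Sox9-tg under all 17 alternatives, and it passed the threshold in 10. Sox11 missed it with RLE size factors (log2 fold change -1.45, adjusted p = 0.0509) and with the Xist to Y covariate (-1.47, 0.0866), which left 0 members called in each, and leaving out a library gave -1.87 to -1.18, with 0 to 1 members called. Sox1 passed with both libraries numbered 2 left out (-0.64, adjusted p = 0.032), an alternative chosen after seeing the data, which then called 2 members. The log2 fold change of Sox4 was -0.10 to 0.32 and that of Sox21 -0.0069 to 0.20 when libraries were left out, so the sign of each turned. Sox2ot was at 0.0028 with no low-count filter and -0.30 to 0.12 when libraries were left out. Leaving out libraries gave 965 to 3169 genes changed, 575 to 1785 higher and 390 to 1384 lower. The causes of these shifts were not tested.

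Replicate numbers recur in both groups, and the fit with a replicate block was tried. Deviations of same-numbered libraries correlated at 0.317, 0.613 and 0.0703. For control replicates 1 and 2 the same-numbered Sox9-tg library was the closest, but control replicate 3 was closer to Sox9-tg replicate 1 (0.14). No label states a pairing, so whether the numbers pair the samples cannot be told. Only Sox9-tg has a replicate 4, so with the block that library adds nothing to the estimated group difference. With the block, Sox11 was at -1.53 (adjusted p = 0.000851), Sox1 at -0.89 (adjusted p = 0.0165) and Sox21 at -0.0056. Members called were 2, genes lower 1509 and genes changed 3109, against 2251 changed without the block. Among genes given as over the threshold, Pou3f2 (adjusted p = 0.00809), Notch1 (0.0172), Tubb3 (0.0022) and Zic1 (0.00224) also passed with the block. The 4 and 3 libraries, their unknown origin and the unknown strand setting limit the precision of all values.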
